A study of Mus musculus with 4 samples.

Results

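Tetraspanins are small membrane proteins that cross the membrane several times and gather integrins, proteases and receptors into clusters at the cell surface. CD151 binds the laminin receptor integrins closely, and CD9, CD81 and CD82 organise adhesion and membrane fusion. Syndecans are transmembrane proteoglycans whose heparan sulphate chains bind matrix proteins and growth factors, and whose outer part can be cut off by metalloproteases. In skin, both families act in the attachment and migration of fibroblasts and keratinocytes.

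The members were 9 genes, the tetraspanins Cd9, Cd63, Cd81, Cd82 and Cd151 and the syndecans Sdc1, Sdc2, Sdc3 and Sdc4, measured through the probe sets annotated to exactly 1 of them. A probe set is a group of short array probes that report 1 transcript. Of 34945 probe sets with a single gene name, 23 matched, and they cover 8 of the 9 genes. Cd63 had no matching probe set in the annotation used and is not analysed here.

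The cells were primary dermal fibroblasts from newborn mice at postnatal day 1, cultured for 48 h with no treatment. One genotype was adam9 -/- (knockout, n = 2 isolations) and the other adam9 +/+ (wild type, n = 2), and each isolation was hybridised to 1 array. ADAM9 is a membrane protease of the disintegrin and metalloprotease family, and the comparison asked which genes differ constitutively without it. The labels give neither the strain nor the design of the null allele, nor the number of animals behind an isolation, so the spread between isolations may be partly technical.

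Adam9 itself fell, with log2 values of 8.33 and 8.55 in knockout cells against 11.58 and 11.70 in wild-type cells (limma adjusted p = 0.0275 in the fit of probe sets). The genotypes also differed in Xist, the RNA of the inactive X chromosome, by 6.09 log2 units. It stood at 10.38 and 10.40 in knockout cells against 4.29 and 4.32 in wild-type cells. Differences by sex and by genotype therefore cannot be told apart, on any chromosome. All 8 members with a probe set are autosomal, and the part of sex in their values was not tested. Mki67, a proliferation marker picked after earlier results were known, stood at 8.80 and 9.03 in knockout cells against 6.81 and 6.59 in wild-type cells. Fibroblast markers were high in all arrays, with a median log2 value of 12.3 to 12.6 over 13 genes. Epidermal keratin Krt14 stood between 3.53 and 3.96, and it and Cdh1 below were chosen by role after their values were seen. Both are among the dim keratinocyte markers. Of 11 such markers, 6 lay under 4.17, the signal filter used for testing, in all arrays, and 5 had a mean over it. Krt10 at 6.49 to 7.17, Epcam at 6.49 to 6.98 and Krt5 at 4.84 to 4.85 were over it in every array. Leukocyte markers stood apart in wild-type isolation 1, where the median of 18 genes was 8.28 against 3.93 to 4.47 in the other arrays. The log2 of their summed linear signal was 13.56 in that array, 9.52 in the other wild-type array, and 9.37 and 9.07 in knockout cells. Because whole cultures were measured, fewer cells of a type and less RNA per cell cannot be told apart.

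Promoter sequences are shown for 3 members whose values carry the results below. By the brightest probe set of each, Cd151 and Sdc3 stood lower in both knockout arrays than in both wild-type arrays, and Sdc4 stood higher. Each line holds the 250 bases before a transcription start, 5′ to 3′ on the gene's strand, from RefSeq on build GRCm38.p6. Capitals mark a GC box, the letters GGGCGG or their reverse complement CCGCCC, which transcription factors of the Sp family are known to bind.
Cd151, chr7:141467112-141467361, plus strand: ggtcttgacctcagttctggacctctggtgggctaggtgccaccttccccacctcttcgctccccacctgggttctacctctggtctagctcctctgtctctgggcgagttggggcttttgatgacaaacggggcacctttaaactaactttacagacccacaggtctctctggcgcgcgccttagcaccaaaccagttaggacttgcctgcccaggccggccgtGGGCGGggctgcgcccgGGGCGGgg
Sdc3, chr4:130792287-130792536, plus strand: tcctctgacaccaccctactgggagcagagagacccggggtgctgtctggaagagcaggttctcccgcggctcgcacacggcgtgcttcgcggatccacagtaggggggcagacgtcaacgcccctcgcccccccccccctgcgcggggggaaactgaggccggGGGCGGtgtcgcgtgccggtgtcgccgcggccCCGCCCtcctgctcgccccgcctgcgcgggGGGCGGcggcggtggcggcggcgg
Sdc4, chr2:164443189-164443438, minus strand: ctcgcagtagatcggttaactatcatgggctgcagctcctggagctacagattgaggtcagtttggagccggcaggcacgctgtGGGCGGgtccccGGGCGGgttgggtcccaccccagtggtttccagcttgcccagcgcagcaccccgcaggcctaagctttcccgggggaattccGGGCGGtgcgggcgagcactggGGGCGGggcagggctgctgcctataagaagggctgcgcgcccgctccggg

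The GC box matched 2 times in the Cd151 window, 3 times in Sdc3 and 4 times in Sdc4. Among all 32851 promoter windows of this length, 32.7% held at least 1 match on either strand. The TATA box TATAAA, searched with its reverse complement TTTATA, matched in none of the 3 windows, and in 12.4% of all windows. The GC box also matched in at least 1 window each of Cd9, Cd81, Cd82 and Sdc1. Its part in any difference was not tested. Cd151 has a second annotated start, whose window held 0 GC boxes. Sdc2 had no entry in the promoter table.

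Across the members, most probe sets stood lower in the knockout, and none passed the test over all probe sets. Of 23 member probe sets, 22 had a mean above the 40th percentile and were tested, and 19 of those had a negative difference (knockout minus wild type throughout), as 50.9% of all probe sets tested did. The genotypes did not overlap, with the knockout lower, for 12 of the 22, and this held for 22.8% of all 23595 probe sets tested. In the other direction 1 of 22 did not overlap, against 21.8% of all. With limma, 0 of 22 had an adjusted p under 0.05 (0.0424% of all probe sets; lowest member adjusted p = 0.203). At an unadjusted p under 0.05 there were 9, all lower in the knockout, against 5.46% of all probe sets on that side. The median difference was -0.32 over the 22 and -0.0051 over all probe sets.

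Those 9 probe sets belong to 3 genes, Cd151 with 4, Sdc2 with 3 and Sdc3 with 2, so probe sets of 1 gene repeat the same RNA and are not independent. Counted once per gene by its brightest probe set, 4 of 8 genes stood lower without overlap (22.0% of all 13271 genes) and 1 higher (23.0%). With an array left out, 1 genotype is down to 1 isolation, so the count of 9 cannot be judged there. All 9 kept a negative difference, but its size moved. Cd151 1451232_at ran from -1.52 to -0.56, Sdc2 1417012_at from -0.60 to -0.35 and Sdc3 1436482_a_at from -0.56 to -0.40.

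**Figure D1:**
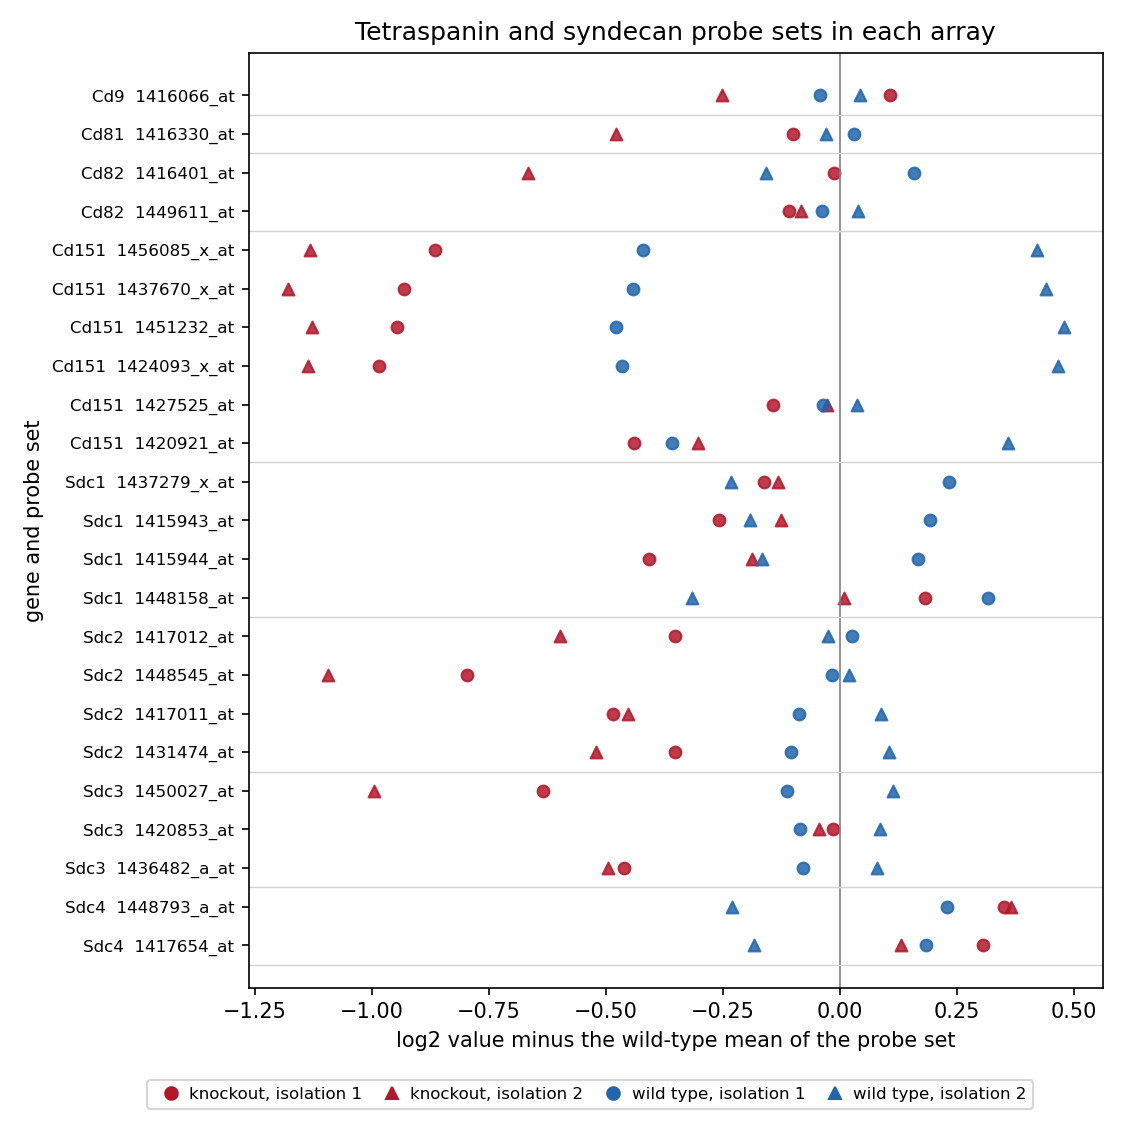
Log2 value of each of the 23 member probe sets in each array, as the distance from the wild-type mean of that probe set. Circles are isolation 1 and triangles isolation 2, in red for knockout and blue for wild type. The 4 bright Cd151 probe sets and all 4 Sdc2 probe sets have both knockout arrays to the left of both wild-type arrays.

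CD151 links laminin-binding integrins to the tetraspanin web, and its gene had the largest differences among the members with all 4 arrays. Without wild-type isolation 2 its bright probe sets differed by -0.61 to -0.56, less than the -0.93 of Sdc2 1448545_at and the -0.70 of Sdc3 1450027_at. The brightest of its 6 probe sets, 1456085_x_at, gave log2 values of 11.06 and 10.79 in knockout cells against 11.51 and 12.35 in wild-type cells. Both knockout arrays lay below both wild-type arrays, and the wild-type arrays themselves lay 0.84 apart. The knockout mean was 10.93 ± 0.188 (SD, n = 2) and the wild-type mean 11.93 ± 0.595 (SD, n = 2), a difference of -0.999 (SE 0.317, 95% interval -1.84 to -0.16, limma adjusted p = 0.399).

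The other 3 bright Cd151 probe sets gave the same order of arrays. Probe set 1437670_x_at stood at 10.69 and 10.44 in knockout cells against 11.18 and 12.06 in wild-type cells. Probe set 1451232_at stood at 10.31 and 10.13 against 10.78 and 11.73, a 2.05-fold lower mean in the knockout. Probe set 1424093_x_at stood at 10.16 and 10.01 against 10.69 and 11.62. In all 4, wild-type isolation 2 was the highest array and knockout isolation 2 the lowest. Probe sets with the suffix _x_at may also bind related transcripts, and the part of such binding in their values was not tested. Probe set 1451232_at, without that suffix, differed by -1.04.

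Both dim Cd151 probe sets overlapped between the genotypes. Probe set 1427525_at stood at 5.69 and 5.80 in knockout cells against 5.80 and 5.87 in wild-type cells, a difference of -0.085. Probe set 1420921_at stood at 5.09 and 5.23 against 5.17 and 5.89, where wild-type isolation 2 alone was apart. The mean over all 6 gave a difference of -0.77 (SE 0.272, limma adjusted p = 0.451 in the fit of gene means).

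The size of the Cd151 difference turned on wild-type isolation 2. Without that array, 1451232_at differed by -0.56 and 1456085_x_at by -0.58, and without wild-type isolation 1 they differed by -1.52 and -1.42. Fibroblast marker Lum, a matrix proteoglycan, was also apart in wild-type isolation 2, at 10.13 there and 12.38 to 12.81 in the other arrays. Pdgfra stood at 10.35 there and 11.93 to 12.31 in the others, and these 2 had the widest ranges of 13 fibroblast markers. S100a4 and Vim were instead highest in that array, at 13.74 and 13.81, and Thy1 ran from 12.26 to 12.45. Of 10 smooth muscle and pericyte markers, 7 stood lower in the knockout without overlap and 2 higher (22.0% and 23.0% of all genes tested). Myh11, the smooth muscle myosin, stood at 6.55 and 5.48 in knockout cells against 8.71 and 9.57 in wild-type cells, so it was higher in both wild-type arrays. Kcnj8, a potassium channel of pericytes, stood at 8.38 and 5.97 against 5.86 and 4.30, and Abcc9, its partner subunit and named after its values were seen, at 7.49 and 6.48 against 5.49 and 3.45. Both genes were higher in the knockout arrays, with their lowest value in wild-type isolation 2. Acta2, at 13.74 to 13.96, and Tagln were the brightest of the 10 markers and weigh most in their sum. Over 10 pericyte and smooth muscle markers the log2 of summed signal was 14.79 and 14.60 in knockout cells against 14.74 and 14.95 in wild-type cells. For 11 keratinocyte markers it was 8.58 and 8.50 against 9.33 and 9.29. Perp and Dsp, which encode desmosome proteins, had the widest ranges of these. Perp stood at 5.28 and 3.04 in knockout cells against 8.10 and 7.90 in wild-type cells, and Dsp at 3.06 and 3.55 against 4.84 and 6.75. Cdh1, the epithelial cadherin, was 2.29 to 2.39 in every array. Their part in the Cd151 difference was not tested.

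CD81, a partner of EWI proteins and of many receptors, had 1 probe set, with values of 13.02 and 12.64 in knockout cells against 13.15 and 13.09 in wild-type cells. The genotypes did not overlap, but the nearest arrays lay 0.071 apart and the knockout arrays 0.38 apart. The difference was -0.29 (SE 0.178, 95% interval -0.76 to 0.18, limma adjusted p = 0.588), and -0.10 without knockout isolation 2.

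CD82, known as a suppressor of cell migration, had probe set 1416401_at at 9.16 and 8.51 in knockout cells against 9.33 and 9.02 in wild-type cells. Knockout isolation 1 lay between the wild-type arrays, so the genotypes overlapped (difference -0.34, 95% interval -1.05 to 0.38, limma adjusted p = 0.669). Without knockout isolation 2 the difference was -0.012. Its other probe set, 1449611_at, stood at 6.51 and 6.53 against 6.58 and 6.66, a difference of -0.095 without overlap. The array with the highest value of 1416401_at was wild-type isolation 1, which also had the high leukocyte markers, and their part in it was not tested.

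CD9, which acts in adhesion and gamete fusion, differed least among the tetraspanins by the brightest probe set. Its 1 probe set stood at 11.52 and 11.16 in knockout cells against 11.37 and 11.46 in wild-type cells, so the knockout arrays lay on either side of the wild-type arrays. The difference was -0.073 (95% interval -0.53 to 0.39, limma adjusted p = 0.902), an interval that spans changes in both directions.

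Among the syndecans, Sdc2 was the one whose probe sets were all without overlap between the genotypes. Syndecan-2 is a mesenchymal syndecan of fibroblasts. Its probe set 1448545_at stood at 9.57 and 9.27 in knockout cells against 10.35 and 10.39 in wild-type cells. The distance between the nearest arrays of the genotypes, 0.78, was larger than the gap within either genotype, 0.30 and 0.036. The knockout mean was 9.42 ± 0.210 (SD, n = 2) and the wild-type mean 10.37 ± 0.026 (SD, n = 2), or 1.93-fold lower in the knockout. The difference was -0.95 (SE 0.160, 95% interval -1.37 to -0.52, limma adjusted p = 0.203), and it lay between -1.10 and -0.80 with any 1 array left out.

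The remaining Sdc2 probe sets differed by about 0.5 log2 units. Probe set 1417012_at stood at 9.93 and 9.68 in knockout cells against 10.31 and 10.25 in wild-type cells (difference -0.48). Probe set 1417011_at stood at 9.43 and 9.47 against 9.83 and 10.01 (difference -0.47). The last, 1431474_at, was under the filter with 3.25 and 3.08 against 3.50 and 3.70, and it was therefore not tested. In each of the 4 both knockout arrays were below both wild-type arrays. As the mean over its probe sets Sdc2 differed by -0.58 (SE 0.127, limma adjusted p = 0.301).

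Syndecan-3, best known from the nervous system and muscle, had 3 probe sets whose differences were unequal in size. The brightest, 1450027_at, stood at 8.92 and 8.56 in knockout cells against 9.45 and 9.67 in wild-type cells, with no overlap. The knockout and wild-type means were 8.74 ± 0.256 and 9.56 ± 0.160 (SD, n = 2 each), a difference of -0.82 (SE 0.189, 95% interval -1.31 to -0.32, limma adjusted p = 0.307). Probe set 1436482_a_at stood at 6.38 and 6.34 against 6.76 and 6.92, also without overlap (difference -0.48). Probe set 1420853_at stood at 6.93 and 6.90 against 6.86 and 7.03, with a difference of -0.030 and full overlap. The mean over all 3 differed by -0.44 (limma adjusted p = 0.40).

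Syndecan-4 is the syndecan of focal adhesions, where it acts beside integrins on fibronectin. Its probe set 1448793_a_at stood at 9.09 and 9.10 in knockout cells against 8.97 and 8.51 in wild-type cells. It was the 1 member probe set with both knockout arrays above both wild-type arrays. The difference was 0.36 (SE 0.197, 95% interval -0.16 to 0.88, limma adjusted p = 0.561), and without wild-type isolation 2 it was 0.13. The second, 1417654_at, stood at 8.37 and 8.20 against 8.25 and 7.88, where the genotypes overlapped (difference 0.22; 0.035 without wild-type isolation 2).

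Within each array, the brightest probe set of Sdc4 minus that of Sdc2 was -0.84 and -0.58 in knockout cells against -1.34 and -1.74 in wild-type cells, on the log2 scale. That pair was chosen after the opposite signs were seen and combines the values above, so it is a description with no test.

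Syndecan-1, the main syndecan of keratinocytes and plasma cells, had 4 probe sets of mixed direction. Probe set 1437279_x_at stood at 9.67 and 9.70 in knockout cells against 10.07 and 9.60 in wild-type cells. Probe set 1415943_at stood at 9.36 and 9.49 against 9.81 and 9.43, and 1415944_at at 8.31 and 8.53 against 8.89 and 8.55. Of these, 1415944_at alone did not overlap, with 0.021 between the nearest arrays.

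The fourth, 1448158_at, stood at 7.32 and 7.15 against 7.46 and 6.82, and it was the 1 Sdc1 probe set with a positive difference. The 4 differences ran from -0.30 to 0.095, with limma adjusted p from 0.587 to 0.912. In all 4, wild-type isolation 1 was the highest array, the array with high leukocyte markers. The plasma and B cell marker Jchain stood at 2.49 to 2.91 in every array. Of the 7 markers in that list, which holds Sdc1 itself, Mzb1 stood at 5.39 to 5.62 and Xbp1 at 11.28 to 11.37. The part of other cells in the Sdc1 values was not tested.

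**Figure D2:**
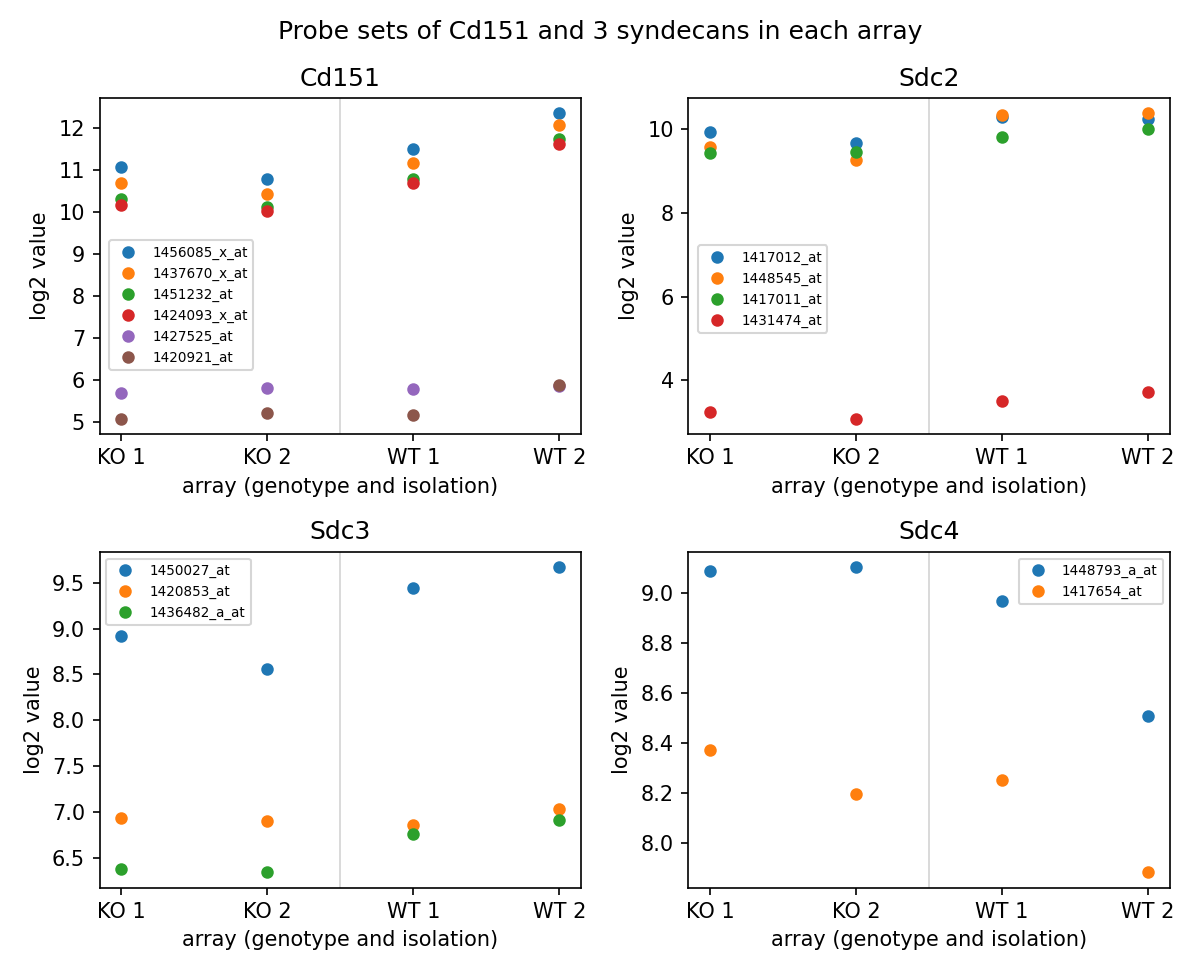
Log2 values of every probe set of Cd151, Sdc2, Sdc3 and Sdc4 in the 4 arrays (KO, knockout; WT, wild type; 1 and 2, isolations), with 1 colour per probe set. The bright Cd151 probe sets are highest in wild-type isolation 2, Sdc2 is lower in both knockout arrays, and Sdc4 is lowest in wild-type isolation 2.

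**Figure D3:**
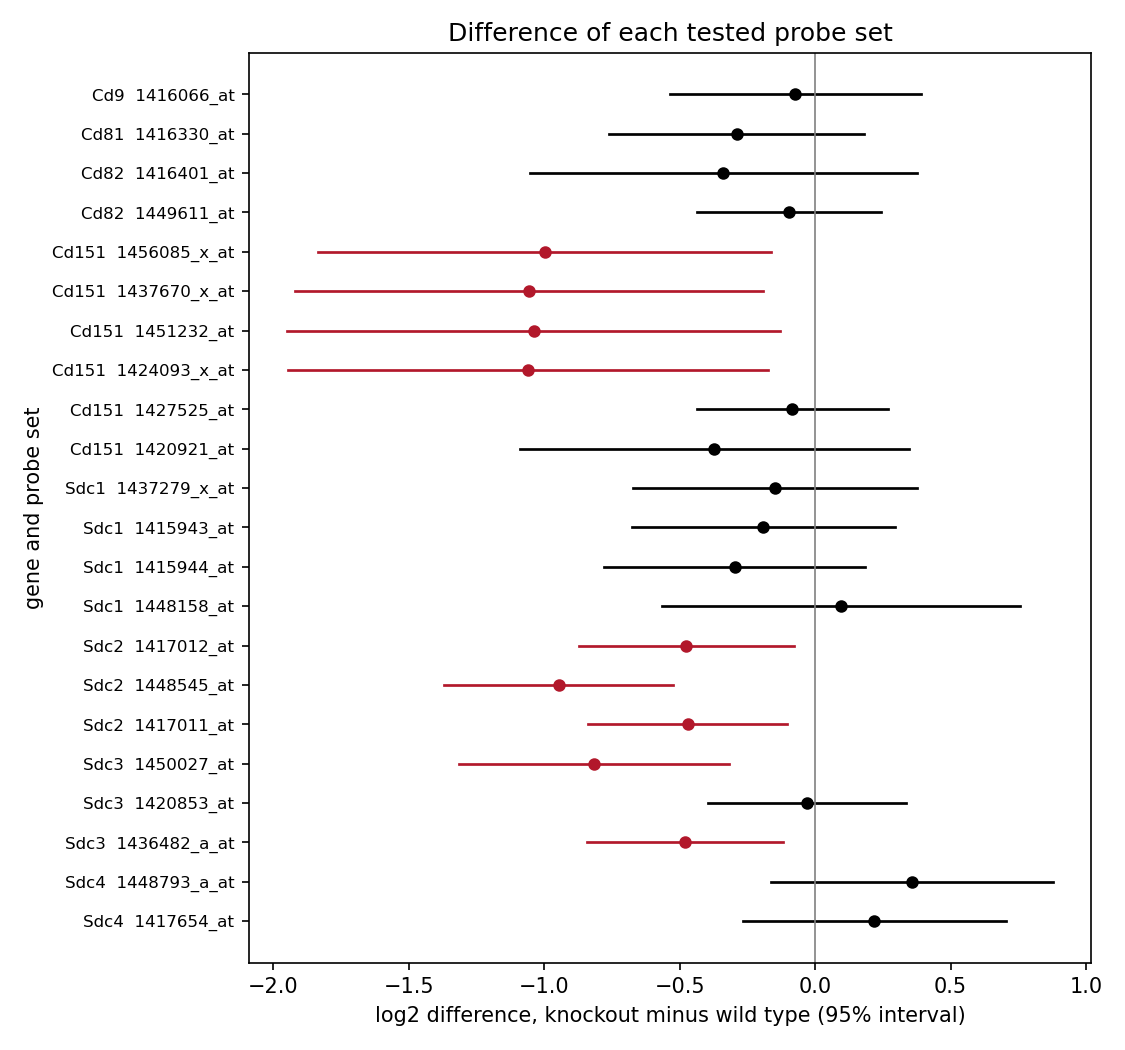
Difference of each of the 22 tested probe sets, knockout minus wild type, with its 95% interval from limma before any adjustment for the number of probe sets tested. The 9 in red, of Cd151, Sdc2 and Sdc3, have intervals below 0, and none of the 22 passed after adjustment.

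Genes around the members were described through lists of partners and of the heparan sulphate pathway, with 1 probe set per gene. Of 13271 genes, 0.0678% had an adjusted p under 0.05, 22.0% stood lower and 23.0% higher without overlap, and the median difference was 0.0027. In the lists the sole call was Adam9 itself, 1 of 17 tested genes in a list of proteases and protease inhibitors drawn up around the cutting of syndecan ectodomains. Adam9 differed by -3.31 to -3.08 with any 1 array left out. That list had 9 negative differences and a median of -0.024, with 6 genes lower and 3 higher without overlap. Its median had no settled sign, being 0.0031 with quantile normalization, 0.012 without knockout isolation 1, -0.19 without knockout isolation 2 and -0.15 without wild-type isolation 2. Adam10 and Adam17, the best known sheddases, differed by -0.23 and 0.041. Adam10 differed by -0.10 without knockout isolation 1, and Adam17 ran from -0.10 to 0.18 as wild-type isolation 2 or 1 was left out. They and the genes below that are said to be chosen by role were named after their values were seen.

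Tetraspanins outside the members did not share a direction. Of 22 tested, 13 had negative and 9 positive differences, with a median of -0.041 (0.020 without wild-type isolation 1, -0.013 without wild-type isolation 2), and 6 stood lower and 5 higher without overlap. Cd53, a tetraspanin of leukocytes, stood at 4.72 and 6.18 in knockout cells against 8.37 and 6.70 in wild-type cells, a difference of -2.09 (limma adjusted p = 0.432). It was highest in wild-type isolation 1, as the leukocyte markers were, and differed by -1.25 without that array. Tspan2 stood at 5.91 and 5.94 against 6.70 and 7.85, a difference of -1.35 (limma adjusted p = 0.384) and of -0.78 without wild-type isolation 2. Its other probe sets, 1424567_at and 1424568_at, differed by -2.24 and -1.68, so all 3 pointed the same way.

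Among 26 partner proteins of tetraspanins, 15 had negative differences, 8 stood lower and 2 higher without overlap, and the median was -0.088. That median was 0.024 without knockout isolation 1 and 0.016 without wild-type isolation 1. Itga7, the laminin receptor subunit of muscle, stood at 5.92 and 5.82 in knockout cells against 6.72 and 6.93 in wild-type cells (difference -0.95, limma adjusted p = 0.188). Icam1 differed by 0.86 with overlap, and by -0.060 without knockout isolation 1. The classical partners of CD151, chosen by role, were Itga3 at 0.068, Itga6 at -0.21 and their shared subunit Itgb1 at -0.33. Itga3 was dim, with log2 values of 5.33 to 5.56, while Itga6 ran from 6.02 to 7.01 and Itgb1 from 11.36 to 11.92. Without knockout isolation 2 Itga3 was -0.018 and Itga6 -0.70, and with knockout isolation 1 left out they were 0.15 and 0.29. Of these 3, Itgb1 alone did not overlap, and it differed by -0.19 without wild-type isolation 2.

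Cytoplasmic and integrin partners of syndecans had a median of -0.055 over 21 genes (-0.022 without knockout isolation 1, -0.11 without wild-type isolation 1), with 5 lower and 2 higher without overlap. Itgb3, the integrin subunit that pairs with alpha V beside syndecans, stood at 6.53 and 6.83 in knockout cells against 8.64 and 8.65 in wild-type cells, a difference of -1.96 (SE 0.156, limma adjusted p = 0.0693). Its second probe set differed by -0.032. Itgb5 differed by -0.38 (-0.17 without knockout isolation 2). Sdcbp, which encodes syntenin, the adaptor that binds syndecan tails and CD63 and was chosen by role, differed by 0.090 (-0.086 without wild-type isolation 2, 0.27 without wild-type isolation 1). In the exosome and endosome list, 18 of 24 genes were negative, 10 stood lower and 2 higher without overlap, and the median was -0.10 (-0.063 without knockout isolation 2). Rab31, a small GTPase of endosomes, differed by -0.46 (limma adjusted p = 0.352), and Rab27a by -0.56 with overlap (-0.0082 without knockout isolation 2, -0.012 without wild-type isolation 1).

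Other heparan sulphate proteoglycans were mostly negative, while the 2 largest differences were positive. Of 11 tested, 8 were negative, 5 stood lower and 3 higher without overlap, and the median was -0.36 (-0.20 without knockout isolation 1, -0.22 without knockout isolation 2, -0.16 with the mean over probe sets). Glypican-3, a membrane proteoglycan encoded on the X chromosome by Gpc3, stood at 8.97 and 9.30 in knockout cells against 7.93 and 5.66 in wild-type cells, a difference of 2.34 (limma adjusted p = 0.413; 1.21 without wild-type isolation 2). Tgfbr3, betaglycan, differed by 0.95, and by 0.31 without wild-type isolation 2. Gpc4, also on the X chromosome and named after its values were seen, went the other way. It stood at 10.97 and 11.04 in knockout cells against 11.88 and 11.92 in wild-type cells. The difference was -0.89 (limma adjusted p = 0.164), and -0.93 to -0.85 with any 1 array left out.

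The enzymes that build heparan sulphate chains had a median of -0.092 over 24 genes (-0.046 without knockout isolation 1), with 8 lower and 5 higher without overlap. Both extremes were 3-O-sulphotransferases. Hs3st3b1 stood at 4.54 and 5.15 in knockout cells against 5.56 and 6.17 in wild-type cells (difference -1.02). Its other tested probe set, 1421331_at, differed by -0.22. Probe sets 1421332_at and 1442816_at, under the filter and not tested, differed by 0.017 and 0.080. Hs3st1 stood at 8.36 and 8.26 against 8.07 and 6.51 (difference 1.02; 0.25 without wild-type isolation 2).

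The genes that edit and degrade heparan sulphate had negative differences in all 9 tested, against 49.5% of all genes. Without knockout isolation 2, or without wild-type isolation 1, 8 of the 9 were negative. With all arrays, 8 stood lower without overlap, where 22.0% of all genes did. The median was -0.38 (-0.33 without knockout isolation 2, -0.27 with the mean over probe sets of each gene). Among those 8, Ids is encoded on the X chromosome and Hgsnat on chromosome 8, as Adam9 is. The part of these positions in the differences was not tested. Gusb, beta-glucuronidase, stood at 8.67 and 8.94 in knockout cells against 9.38 and 9.22 in wild-type cells (difference -0.49, limma adjusted p = 0.402). Sgsh, a lysosomal sulphatase, stood at 7.90 and 7.52 against 8.18 and 8.21 (difference -0.48; -0.30 without knockout isolation 2). The second probe sets of Gusb and Sgsh differed by 0.039 and 0.029. None passed over all genes, and 6 were lower at an unadjusted limma p under 0.05 (5.24% of all genes), with 0 to 3 when any 1 array was left out.

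Ligands of heparan sulphate in the matrix and among growth factors had a median of -0.21 over 19 genes, with 7 lower and 2 higher without overlap. The median was -0.11 without knockout isolation 2, -0.14 without wild-type isolation 1 and -0.057 with the mean over probe sets of each gene. Pdgfa, a growth factor chain for mesenchymal cells, stood at 7.73 and 7.81 in knockout cells against 8.33 and 9.27 in wild-type cells (difference -1.03, limma adjusted p = 0.409; -0.56 without wild-type isolation 2). Hbegf, an EGF family ligand that CD9 is known to bind, stood at 7.37 and 7.82 against 7.94 and 8.91 (difference -0.83; -0.35 without wild-type isolation 2). Fn1, the fibronectin bound by syndecan-4 and chosen by role, differed by -0.71 (limma adjusted p = 0.283).

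**Figure D4:**
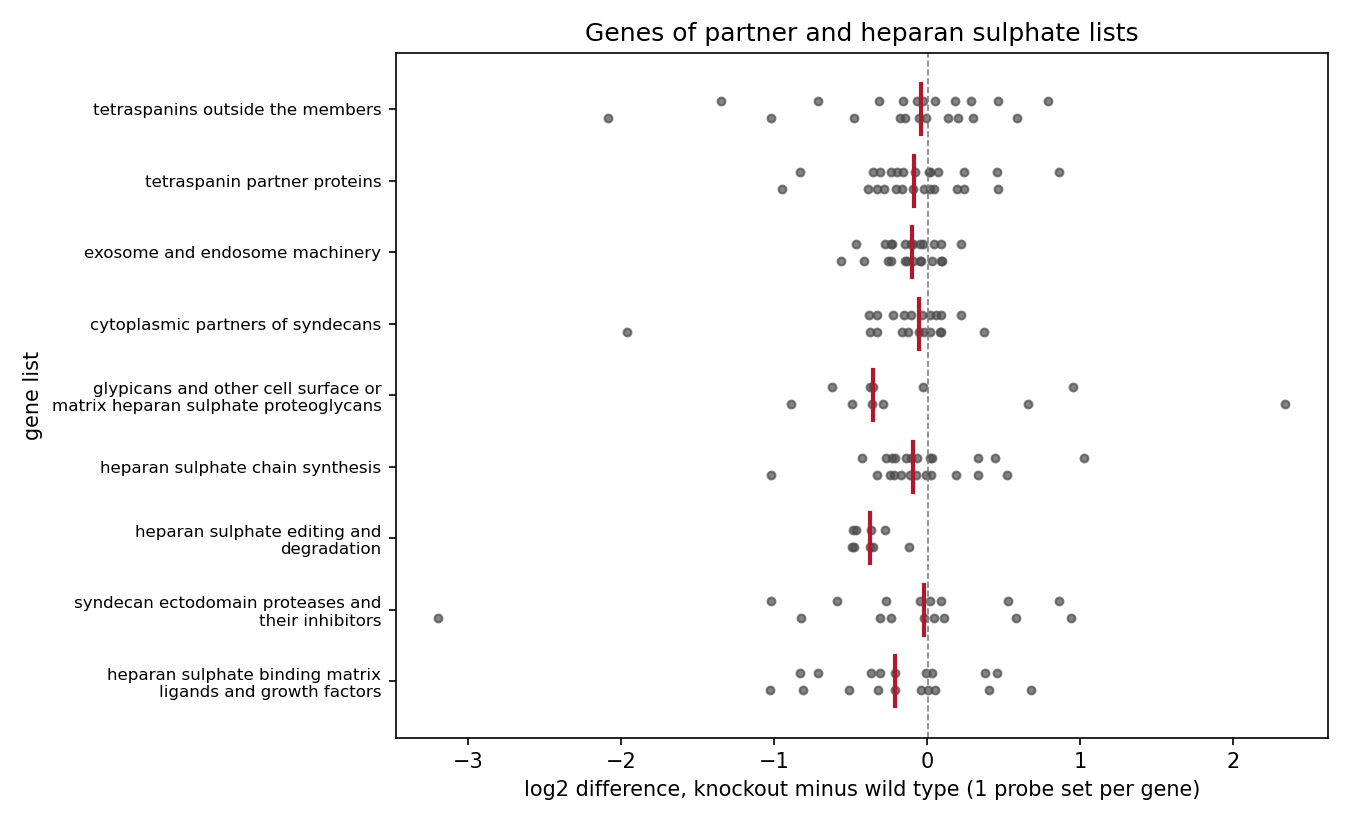
Log2 difference, knockout minus wild type, of every tested gene in the 9 partner and heparan sulphate lists, with 1 dot per gene and the list median as a red bar. The dashed line is the median over all genes tested, 0.0027. All 9 genes that edit or degrade heparan sulphate lie left of it, and the dot at -3.20 is Adam9.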

How the data were processed

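The authors deposited log2 signals, 1 per probe set and array, made with Affymetrix Expression Console per the submitters' processing notes. Summary algorithm and version: not given in the sources used here. No source states the log base, which was taken as 2, since the deposited values ran from 1.70 to 14.4. If the base differed, folds would change and the order of arrays would not.

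Gene names came from the platform annotation, updated by Entrez identifier through RefSeq (GRCm38.p6). Of 45101 probe sets, 34945 named a single gene, 932 several and 9160 none, with 64 array controls set aside. Those above the 40th percentile of mean signal (4.17) were compared by genotype with limma 3.58.1 in R 4.3.3, without a block, and p-values were adjusted by Benjamini-Hochberg over all 23595. Intervals are unadjusted. The fit had 2 residual and 2.60 prior degrees of freedom, so 4 arrays limit the precision. Lists used the brightest probe set of each gene, and 292 of 304 list entries matched. In each list the genes past the threshold were named, or else the 2 with the largest difference. For marker lists these were the 2 with the widest range, of which the text gives those that bear on a member. Members and lists were chosen with earlier results of these data known. Alternatives were a block, filters, normalizations, moderation, array weights, probe set choices and leaving out each array.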

Additional observations from a re-analysis of the deposited data

How the results depend on the processing

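No member probe set passed limma under any of the 15 alternatives. The lowest adjusted p of a member in them lay between 0.150 and 0.832. Across alternatives, 293 member differences kept their sign and stayed short of the threshold, and 4 changed sign, each with 1 array left out. With an array left out, Cd9 ran from -0.25 to 0.11, Sdc1 1437279_x_at from -0.38 to 0.085, Sdc1 1448158_at from -0.22 to 0.41 and Sdc3 1420853_at from -0.12 to 0.056. Over all probe sets, 10 were called, and 6 with the stricter filter, 6 with the mean over probe sets and 0 with any 1 array left out. With the isolation number as a replicate block, 0 were called, and the call of Adam9 in the lists was lost (0 list genes called, as with any 1 array left out). Isolations share only a number (correlation of their deviations 0.083 over probe sets). The block changed no member's call, and 1 of the genes that edit or degrade heparan sulphate had an unadjusted p under 0.05 with it, in place of 6. Of the list medians, 115 moved by less than the spread between isolations and 11 by more. The causes were not tested. No detection calls were used, so dim probe sets have no stated background, and 2 arrays per genotype limit every interval.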
